A study of Homo sapiens and Mus musculus with 92 samples.

Results

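The 10 genes described here code for transcription factors that set the balance between erythroid, megakaryocytic, myeloid and lymphoid fates and the switch between fetal and adult globin: KLF1, GFI1B, GFI1, NFE2, MYB, BCL11A, ZBTB7A, SPI1, CEBPA and IKZF1. They were taken by name, as the rows of both gene-level count tables whose symbol equals one of these names, and all 10 were found among the 28103 symbols of each table. HEL is an established human erythroleukaemia cell line, labelled as erythroblast. RNA-seq compared cells in which MLL1 (gene KMT2A) was knocked down (KD, 3 libraries) with controls (3 libraries), and, in a separate experiment, cells with KD of AF9 (gene MLLT3, 2 libraries) with their own controls (2 libraries). The KD cells were infected with a lentivirus carrying 1 shRNA per target gene, and the controls, labelled WT, carried a control shRNA virus and went through the same puromycin selection, so all groups share infection and selection. With 1 shRNA per target, effects of the target and of that shRNA cannot be told apart.

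MLL1 is a histone H3 lysine 4 methyltransferase that holds promoters rich in unmethylated CG dinucleotides active through its CXXC domain, and AF9 is a reader of acylated histones in the complexes that carry P-TEFb and DOT1L and a frequent fusion partner of MLL1 in leukaemia. Of the factors followed here, KLF1 activates the adult beta-globin gene and many other erythroid genes, NFE2 works through the globin locus control region and in platelet formation, and GFI1B and GFI1 are closely related zinc finger repressors that recruit LSD1, the first in erythroid and megakaryocytic cells and the second in stem cells and granulocytes. MYB keeps progenitors dividing. BCL11A and ZBTB7A silence fetal globin, SPI1 (PU.1) and CEBPA (C/EBPα) drive myeloid fates, with SPI1 and GATA1 opposing each other, and IKZF1 (Ikaros) acts in lymphoid and erythroid cells.

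Because MLL1 is known for CG-rich promoters, the 250 bases before the most upstream RefSeq start (GRCh38.p14) are shown for GFI1 and MYB, called in MLL1 KD cells with the replicate block described below, for CEBPA, called in AF9 KD cells, and for KLF1 as a member with few CG dinucleotides. Each is written 5′ to 3′ on the gene's strand with every CG in capitals. BCL11A, also called with the block, is not printed, and whether CG counts went with the calls was not tested.
GFI1, chr1:92486926-92487175, minus strand: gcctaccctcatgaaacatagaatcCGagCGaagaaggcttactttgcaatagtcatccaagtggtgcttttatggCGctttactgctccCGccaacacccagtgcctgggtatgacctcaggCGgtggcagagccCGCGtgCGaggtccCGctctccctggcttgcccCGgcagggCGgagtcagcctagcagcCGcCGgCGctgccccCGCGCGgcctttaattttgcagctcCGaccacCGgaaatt
MYB, chr6:135181058-135181307, plus strand: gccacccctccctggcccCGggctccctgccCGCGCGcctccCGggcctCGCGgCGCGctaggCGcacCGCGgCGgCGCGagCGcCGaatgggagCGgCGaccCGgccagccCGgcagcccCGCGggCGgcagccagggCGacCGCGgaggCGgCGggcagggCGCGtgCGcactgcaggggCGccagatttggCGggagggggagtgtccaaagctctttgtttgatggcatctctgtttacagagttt
CEBPA, chr19:33302535-33302784, minus strand: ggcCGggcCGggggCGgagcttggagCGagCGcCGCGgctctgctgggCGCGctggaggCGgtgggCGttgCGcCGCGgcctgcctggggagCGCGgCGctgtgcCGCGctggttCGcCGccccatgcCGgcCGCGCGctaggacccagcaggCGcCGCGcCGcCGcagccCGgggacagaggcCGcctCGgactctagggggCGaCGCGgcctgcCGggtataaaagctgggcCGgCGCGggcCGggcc
KLF1, chr19:12887202-12887451, minus strand: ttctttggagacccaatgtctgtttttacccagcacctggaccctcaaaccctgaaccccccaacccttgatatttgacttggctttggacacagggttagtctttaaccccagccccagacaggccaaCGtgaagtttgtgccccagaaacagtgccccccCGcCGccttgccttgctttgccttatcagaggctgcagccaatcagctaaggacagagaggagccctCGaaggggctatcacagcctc
The window held 41 CG in CEBPA, 34 in MYB, 19 in GFI1 and 4 in KLF1, against a median of 11 over the 35116 windows of the same length in the RefSeq table. Windows with at least as many CG made up 1.73% of all windows for CEBPA, 6.84% for MYB, 34.6% for GFI1 and 70.7% for KLF1. Of the 8 members with an entry, the others held 28 CG (IKZF1), 22 (ZBTB7A), 19 (BCL11A) and 5 (GFI1B), and NFE2 and SPI1 had no entry. The windows of IKZF1 and BCL11A overlapped annotated exons of their own gene, and the window of GFI1B overlapped exons of TSC1. The letters CCNCNCCC, a pattern bound by KLF-type zinc fingers, were searched on both strands, with overlapping matches counted. They occurred 7 times before ZBTB7A, 4 times before IKZF1, 3 times before MYB, 2 times before BCL11A and 1 time before CEBPA, and 53.4% of all windows held at least 1 match. AGATAA, a form of the GATA motif, was found in none of the 8 windows and in 9.17% of all windows. That says only that these letters are not in these 250 bases, since other forms of the motif were not searched.

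The depth of the libraries was 6966345 to 10380241 counts in the MLL1 experiment and 12278989 to 14232408 in the AF9 experiment. In the MLL1 experiment, replicate 1 of the control and replicate 1 of the KD stood apart from replicates 2 and 3 in the same way. The deviations of replicates 2 and 3 correlated across numbers (0.369 and 0.360) as much as within them (0.326 and 0.352). The data thus set replicate 1 apart and do not tell 2 from 3. Results are also given with the replicate number as a block. A gene was called at a change of at least 1.5-fold and an adjusted p under 0.05, from the quasi-likelihood test of edgeR with p-values adjusted by Benjamini-Hochberg across the tested genes, those with a mean TPM (a level per transcript length and library size) of at least 1. Where a level is given as CPM, it is counts scaled to library size after TMM normalization. In the AF9 experiment the log2 fold change of a gene was higher the higher its GC content, and values from a fit with GC content offsets are given beside the results. Nothing states that replicates came from separate cultures, so p-values measure the spread between these libraries. In bulk RNA, fewer cells of a type and less RNA per cell cannot be told apart.

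The targeted genes were lower in the KD libraries. KMT2A was at 1256, 1304 and 1320 CPM in the controls and at 814, 817 and 833 CPM in MLL1 KD cells, 1.58-fold lower (log2 fold change -0.66, SE 0.09). It missed the threshold without the block (adjusted p = 0.0721) and passed it with the block (adjusted p = 2.25e-07). MLLT3 was at 528 and 548 CPM in the controls and at 92.6 and 107 CPM in AF9 KD cells, 5.38-fold lower (log2 fold change -2.43, SE 0.11, adjusted p = 3.17e-08). The erythroid and megakaryocytic character of the cells was visible in HBG2 (151 to 4869 CPM over the 10 libraries) and ITGA2B (814 to 1464 CPM). ITGA2B was the highest of 12 megakaryocyte markers, of which 7 to 10 had a mean of at least 1 CPM, depending on the group. All 10 erythroid markers reached that level in every group. The granulocyte genes ELANE and PRTN3 had 0 counts in every library, MPO and AZU1 at most 1 count, and the monocyte gene CD14 at most 3 counts, while LYZ had 112 to 1278 counts, CSF3R 16 to 92 and CSF1R 3 to 30. Of the lymphoid genes MS4A1 and CD3D had at most 1 count, while CD79A had 18 to 61 counts and CD4 a group mean of 101 to 188 CPM.

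The members spanned a wide range of levels, which are compared between genes as TPM over the merged exons. In the controls of the MLL1 experiment NFE2 was highest with a mean of 888 TPM (SD 59.4, n = 3), followed by MYB at 315 TPM. KLF1 (275 TPM), SPI1 (251 TPM) and GFI1B (239 TPM) had overlapping ranges over the libraries. IKZF1 (78.2 TPM) and ZBTB7A (35.4 TPM) followed, each apart from its neighbours. BCL11A (1.85 TPM), GFI1 (0.900 TPM) and CEBPA (0.900 TPM) were near the limit of the test, and the ranges of GFI1 and CEBPA overlapped. The filter took the mean over KD and control libraries together. GFI1 therefore passed it only through its level in MLL1 KD cells (5.78 TPM), and CEBPA (0.502 TPM there) did not pass. In the controls of the AF9 experiment NFE2 was again highest (588 TPM, SD 7.11, n = 2), with KLF1 at 256 TPM and MYB at 221 TPM, and the lowest members were GFI1 at 4.56 TPM and CEBPA and BCL11A, both at 1.29 TPM with overlapping ranges. With the length of the canonical transcript in place of the merged exons, GFI1B stood above MYB in the MLL1 experiment (501 against 292 TPM) and had a range that overlapped that of MYB in the AF9 experiment (means of 158 and 173 TPM).

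The controls of the experiments differed in several members, and since each experiment has its own controls the difference and the experiment cannot be told apart. SPI1 was at 118 to 142 CPM in the MLL1 experiment's controls and at 23.7 and 33.3 CPM in the AF9 experiment's. ZBTB7A was at 60.4 to 63.9 CPM in the former and 12.8 and 14.3 CPM in the latter, and GFI1B at 302 to 520 CPM and at 118 and 136 CPM. GFI1 went the other way, with 0.774 to 1.81 CPM against 4.54 and 7.56 CPM. Erythroid genes differed between the controls too, but in both directions. HBG2 was at 256 to 400 CPM in the MLL1 experiment's controls and at 4834 and 4869 CPM in the AF9 experiment's. The globin gene HBA1 was at 225 to 406 CPM in the former and at 72.1 and 116 CPM in the latter. The plot of levels shows each library.

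**Figure D1:**
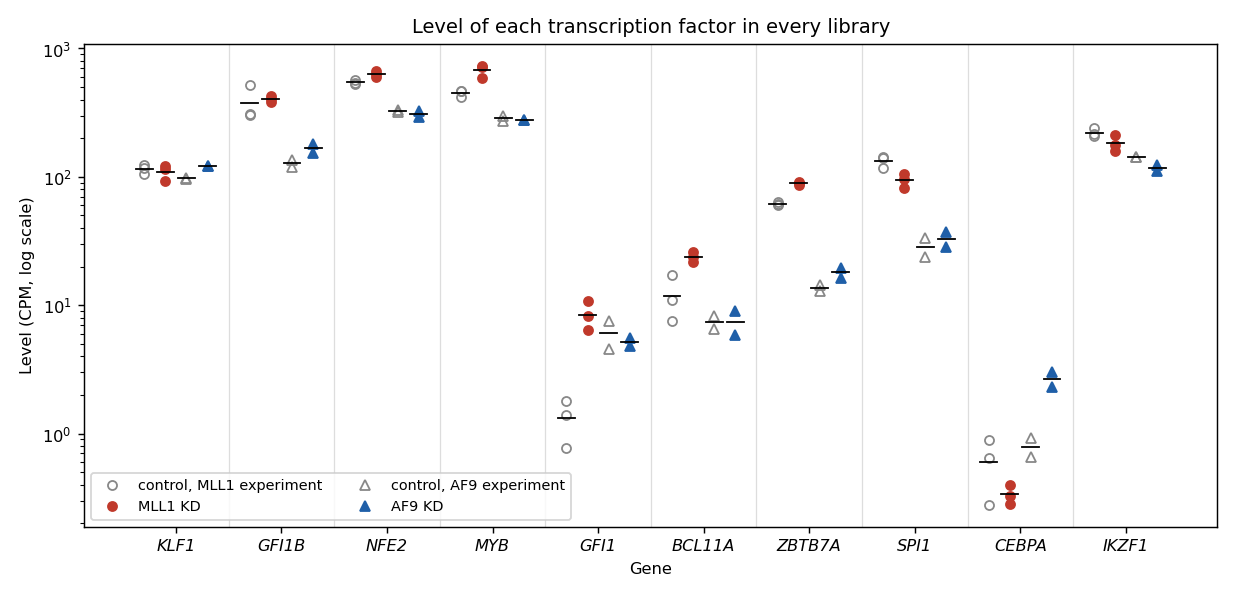
Level in CPM (log scale) of each of the 10 genes in every library, with open symbols for controls and filled symbols for KD cells, circles for the MLL1 experiment, triangles for the AF9 experiment, and a black bar for the group mean. GFI1 lies between 6.37 and 10.7 CPM in MLL1 KD cells, above the 0.774 to 1.81 CPM of their controls, and CEBPA at 2.32 and 3.02 CPM in AF9 KD cells, above the 0.654 and 0.924 CPM of theirs.

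The first comparison asks how MLL1 KD cells, in which KMT2A mRNA was lowered in part, differ from their controls in the mRNA of these factors. With the replicate block, 3 of the 9 tested members rose in MLL1 KD cells, namely GFI1, BCL11A and MYB, and none fell by at least 1.5-fold, against 4.75% of all tested genes called. Without the block none of the 9 was called, against 0.0695% of the 14394 tested genes. In the same fit 5 of the 9 had an unadjusted p under 0.05, against 1437 of the 14394 tested genes. DESeq2 on the same genes called 2 of the 9, GFI1 and MYB, against 232 of the 14394. CEBPA, with 5, 2 and 7 counts in the controls and 4, 2 and 3 counts in the KD cells, was not tested. The median log2 fold change of the 9 members was 0.22 both with and without the block, against 0.01 and 0.00 for all tested genes. In 6 members every KD library lay outside the range of the controls, 5 above and 1 below, where 17.7% of tested genes did so.

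GFI1, a repressor of stem cells and granulocyte precursors on chromosome 1 (hg38, 92473043 to 92486925, minus strand), had 6, 13 and 11 counts in the control libraries and 64, 58 and 99 counts in the MLL1 KD libraries. As CPM these were 0.774, 1.81 and 1.40 in the controls and 6.37, 8.22 and 10.7 in the KD cells. The controls, with a mean of 0.900 TPM, were under the level filter, so GFI1 was tested only through the KD cells (5.78 TPM). All KD libraries were above all controls, and each KD library was 4.55- to 8.23-fold above the control of the same replicate number. The log2 fold change was 2.66 (SE 0.38, 6.31-fold, adjusted p = 0.0837), and with the block 2.67 (SE 0.32, adjusted p = 1.51e-05). GFI1B, its close relative, was far more abundant. GFI1B had 520, 307 and 302 CPM in the controls and 423, 382 and 405 CPM in the KD cells, with a log2 fold change of 0.10 (SE 0.21, adjusted p = 0.938), and with the block 0.15 (SE 0.10, adjusted p = 0.379). Its control of replicate 1 was 1.71-fold above the mean of control replicates 2 and 3. With replicates 2 and 3 alone GFI1B had a log2 fold change of 0.37 (SE 0.05, adjusted p = 4.49e-09), under 1.5-fold. Per canonical length, GFI1 amounted to 0.0588% to 0.232% of the GFI1B level in the controls and to 0.594% to 1.04% in the KD cells.

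MYB, the progenitor factor on chromosome 6 (135181308 to 135219173, plus strand), was at 421, 463 and 463 CPM in the controls and at 585, 712 and 731 CPM in MLL1 KD cells. The groups did not overlap, and both libraries of replicate 1 were the lowest of their group. The log2 fold change was 0.59 (SE 0.12, 1.51-fold, adjusted p = 0.165), and with the block 0.59 (SE 0.06, adjusted p = 4.16e-06). MYB lies at the 1.5-fold limit itself. With the block and GC content offsets together it had a log2 fold change of 0.57 and was no longer called.

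Of the fetal globin silencers, BCL11A on chromosome 2 (60450520 to 60554467, minus strand) was at 7.49, 17.1 and 10.9 CPM in the controls and at 21.7, 25.8 and 23.8 CPM in the MLL1 KD cells. The groups did not overlap, and the controls spread more widely than the KD cells. The log2 fold change was 1.00 (SE 0.29, 2.01-fold, adjusted p = 0.292), and with the block 1.06 (SE 0.18, adjusted p = 0.000592). ZBTB7A was at 63.9, 61.0 and 60.4 CPM in the controls and at 91.0, 86.8 and 89.2 CPM in the KD cells, a narrow spread in both groups. Its log2 fold change of 0.53 (SE 0.11, 1.44-fold, adjusted p = 0.168) stayed under 1.5-fold, and with the block the adjusted p was 0.000753.

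SPI1, the myeloid factor PU.1, was at 118, 140 and 142 CPM in the controls and at 81.9, 95.4 and 106 CPM in MLL1 KD cells. It was the member whose KD libraries all lay below the controls, with a log2 fold change of -0.49 (SE 0.14, adjusted p = 0.292, and 0.000592 with the block). IKZF1 was at 240, 209 and 215 CPM in the controls and at 212, 159 and 176 CPM in the KD cells, where the groups overlapped. Its log2 fold change was -0.28 (SE 0.14, adjusted p = 0.582, and 0.0173 with the block). Of the erythroid factors, KLF1 was at 105, 123 and 118 CPM in the controls and at 92.7, 121 and 114 CPM in the KD cells, with a log2 fold change of -0.08 (SE 0.14, adjusted p = 0.928). NFE2 was at 565, 527 and 539 CPM in the controls and at 665, 602 and 632 CPM in the KD cells, with a log2 fold change of 0.22 (SE 0.10, adjusted p = 0.518, and 0.0176 with the block). With the block, 7 of the 9 members had an adjusted p under 0.05 at any fold, against 13.6% of tested genes.

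**Figure D2:**
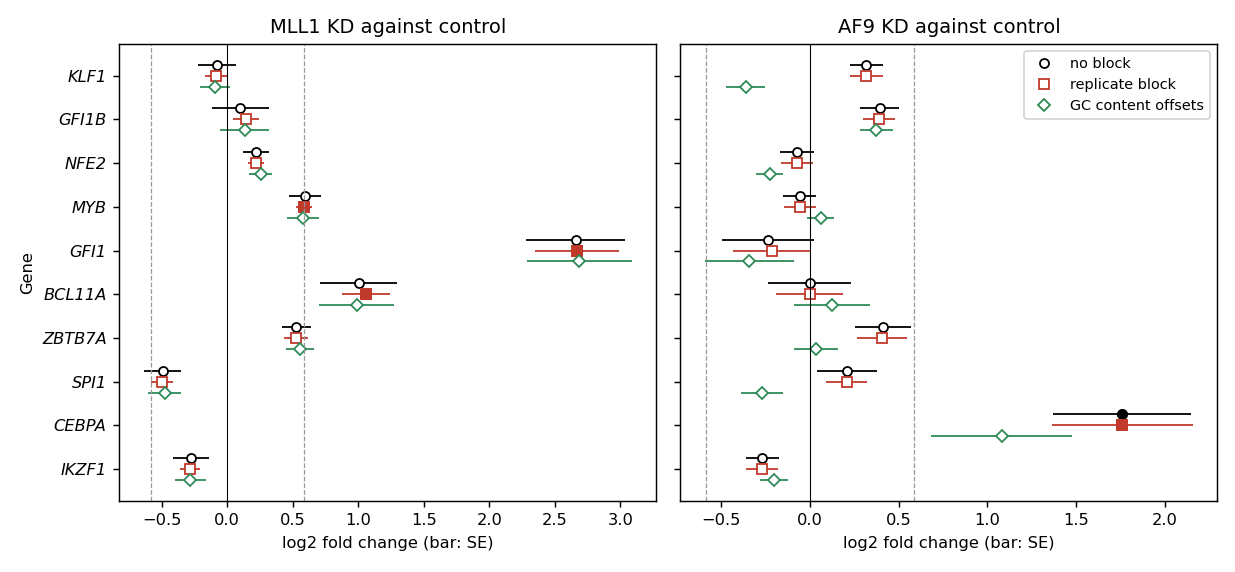
Log2 fold change of each gene in MLL1 KD cells (left) and AF9 KD cells (right) against control, from the fit without a block (black circles), with the replicate number as a block (red squares) and with GC content offsets (green diamonds), with bars of 1 SE, filled symbols for called values and dashed lines at 1.5-fold. GFI1, BCL11A and MYB are filled only with the block on the left, and on the right CEBPA is filled without GC content offsets and open with them, where it has a log2 fold change of 1.08.

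The partners and targets of these factors were followed in lists. Without the block no gene of the 11 lists was called in MLL1 KD cells, and the genes named here for MLL1 KD were chosen after their values were seen. With the block, 7 of the 26 tested erythroid target genes fell and none rose, against 4.75% of all tested genes called. The list's median log2 fold change was -0.22 against 0.00 for all tested genes. The 7 were the globin genes HBA1, HBA2, HBB, HBE1, HBG2 and HBZ and ALAS2, the enzyme that starts haem synthesis in erythroid cells. ALAS2 was at 32.3 to 40.0 CPM in the controls and at 6.37, 11.8 and 13.2 CPM in the KD cells (log2 fold change -1.75, SE 0.28, adjusted p = 0.100, and 1.87e-06 with the block). HBE1, the embryonic beta-like globin, was at 128, 71.7 and 84.9 CPM in the controls and at 52.3, 32.3 and 31.6 CPM in the KD cells (log2 fold change -1.29, SE 0.28, adjusted p = 0.172, and 1.23e-07 with the block). HBG2, a fetal globin, was at 400, 256 and 278 CPM in the controls and at 255, 151 and 166 CPM in the KD cells (log2 fold change -0.71, SE 0.25, adjusted p = 0.376, and 1.89e-06 with the block). The ranges of the 2 groups did not overlap in any of these 3 genes, though for HBG2 the highest KD library, at 255 CPM, was close to the lowest control, at 256 CPM. HBG1 and HBG2, and HBA1 and HBA2, are near-identical pairs between which reads can be split, so the members of each pair are uncertain. The summed level of the 10 erythroid marker genes was 1957 to 2008 CPM in the controls and 1610 to 1661 CPM in the KD cells. ANK1 made the largest part of it (group means of 873 and 754 CPM). The sum of the 12 megakaryocyte markers was 2388 to 2615 CPM and 1999 to 2307 CPM, with ITGA2B as the largest part (1422 and 1178 CPM). The sums weigh these genes most. The part of all these shifts in the values of the members was not tested.

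The counts of calls in the other lists with the block stand beside 4.75% of all tested genes called. Among these lists, ERG, an ETS factor of stem cells and megakaryocytes, rose as the only one of 12 tested GATA1 partners. It was at 8.13, 2.64 and 4.71 CPM in the controls and at 30.1, 18.0 and 17.3 CPM in MLL1 KD cells (log2 fold change 2.07, SE 0.41, adjusted p = 0.155, and 1.65e-06 with the block). GATA1 itself, the master regulator of erythroid cells, was at 280 to 300 CPM in the controls and 211 to 267 CPM in the KD cells (log2 fold change -0.24, SE 0.13, adjusted p = 0.592). GATA2 was at 1156 to 1788 CPM and 729 to 1348 CPM (log2 fold change -0.47, SE 0.26, adjusted p = 0.622, and 9.55e-06 with the block, under 1.5-fold). Of 16 tested fetal globin regulators NR2F2 rose (log2 fold change 0.92, SE 0.27, adjusted p = 0.294, and 2.63e-06 with the block). RCOR2, a CoREST subunit that binds LSD1, was the 1 of 7 tested GFI1 and GFI1B corepressors called (log2 fold change 0.64 with the block), MAFF, a small MAF protein, the 1 of 7 NFE2 partners (-0.82 with the block), and IKZF2 (0.78) and CEBPD (1.39) were the 2 of 11 relatives of Ikaros, C/EBP and ETS factors. None of the 13 NuRD subunits and none of the 7 MYB coactivators was called. Of 14 tested myeloid target genes CYBB rose and CD68 and NCF1 fell, of 9 megakaryocyte markers PF4 rose and TUBB1 fell, and of 4 lymphoid markers CD2 rose. The summed level of the granulocyte and monocyte markers was 26.1 to 37.1 CPM in the controls and 18.4 to 35.4 CPM in the KD cells, with ELANE and PRTN3 at 0.

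**Figure D3:**
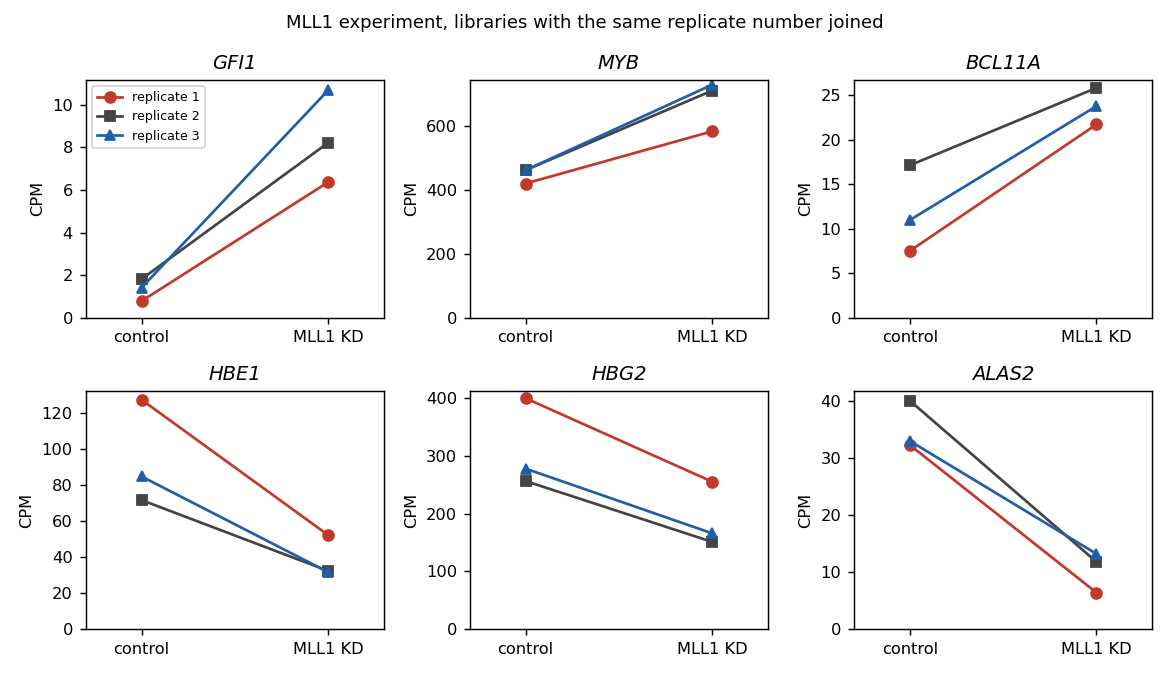
Level in CPM (linear axes from 0) of GFI1, MYB, BCL11A, HBE1, HBG2 and ALAS2 in the MLL1 experiment, with a line joining the control and KD library of each replicate number. All 3 lines rise for GFI1, MYB and BCL11A and fall for HBE1, HBG2 and ALAS2, and for the globin genes replicate 1 runs above replicates 2 and 3, as at 400 CPM against 256 and 278 CPM in the controls for HBG2.

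The second comparison asks the same of AF9 KD cells. In AF9 KD cells 1 of the 10 members, CEBPA, rose and none fell, against 13.1% of the 13333 tested genes called (1069 higher and 675 lower, and 1415 and 438 when scaled by total counts alone). With GC content offsets none was called, against 7.99% of tested genes. The median log2 fold change of the members was 0.10, and 0.01 for all tested genes. At any fold, 4 of 10 members had an adjusted p under 0.05, namely CEBPA, GFI1B and KLF1, all higher, and IKZF1, lower, against 29.0% of tested genes. In 5 members the KD libraries lay outside the range of the controls, 4 above and 1 below, where 66.0% of tested genes did so with 2 libraries a group.

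CEBPA, a single-exon gene on chromosome 19 (33299934 to 33302534, minus strand) and the factor that starts granulocyte development, had 9 and 11 counts in the control libraries and 39 and 31 counts in the AF9 KD libraries. As CPM these were 0.654 and 0.924 in the controls and 3.02 and 2.32 in the KD cells, and the groups did not overlap. The log2 fold change was 1.76 (SE 0.39, 3.39-fold, adjusted p = 0.00460). With GC content offsets it was 1.08 (adjusted p = 0.0638), and without control replicate 1 it was 1.52 (adjusted p = 0.0579), so the call did not hold under either. The exons of CEBPA have a GC content of 65.9%. Among the 20 bins of tested genes by GC content, the median log2 fold change was 0.71 in the highest bin (median GC content 65.0%) and -0.22 in the lowest (median 36.0%). Over 13045 genes of known GC content, Spearman's rho between GC content and log2 fold change was 0.48 in the AF9 experiment and, over 13987 genes, -0.07 in the MLL1 experiment, a description across genes, which are not independent replicates.

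KLF1 has nearly the same GC content as CEBPA, 65.7%. It was at 95.8 and 98.8 CPM in the controls and at 122 and 121 CPM in AF9 KD cells. The log2 fold change was 0.32 (SE 0.09, 1.25-fold, adjusted p = 0.0189), and with GC content offsets it turned to -0.36 (adjusted p = 0.0278), so that no direction can be given for KLF1. GFI1B, at 50.7% GC, was at 118 and 136 CPM in the controls and at 152 and 181 CPM in the KD cells. Its log2 fold change of 0.39 (SE 0.11, 1.31-fold, adjusted p = 0.0157) was 0.37 with GC content offsets (adjusted p = 0.0122), under 1.5-fold in both. IKZF1 was at 142 and 142 CPM in the controls and at 112 and 124 CPM in the KD cells, with a log2 fold change of -0.27 (SE 0.10, adjusted p = 0.0487, and 0.0863 with GC content offsets).

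The other 6 members did not pass the test in AF9 KD cells. ZBTB7A was at 12.8 and 14.3 CPM in the controls and at 16.4 and 19.5 CPM in the KD cells, with a log2 fold change of 0.41 (SE 0.16, adjusted p = 0.0622) that was 0.03 with GC content offsets. SPI1 was at 23.7 and 33.3 CPM and at 28.2 and 37.4 CPM, and its log2 fold change of 0.21 (SE 0.17) turned to -0.27 with GC content offsets. MYB, at 274 and 297 CPM in the controls and 275 and 275 CPM in the KD cells, had a log2 fold change of -0.06 (SE 0.09), which was 0.06 with GC content offsets. GFI1 was at 4.54 and 7.56 CPM and at 4.80 and 5.54 CPM, so the KD cells lay inside the range of the controls (log2 fold change -0.24, SE 0.26, adjusted p = 0.528). NFE2 was at 322 and 332 CPM and at 294 and 328 CPM, with a log2 fold change of -0.07 (SE 0.10) that was -0.23 with GC content offsets (adjusted p = 0.0444). BCL11A was at 6.55 and 8.28 CPM and at 5.84 and 9.06 CPM, with a log2 fold change of -0.00 (SE 0.23).

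**Figure D4:**
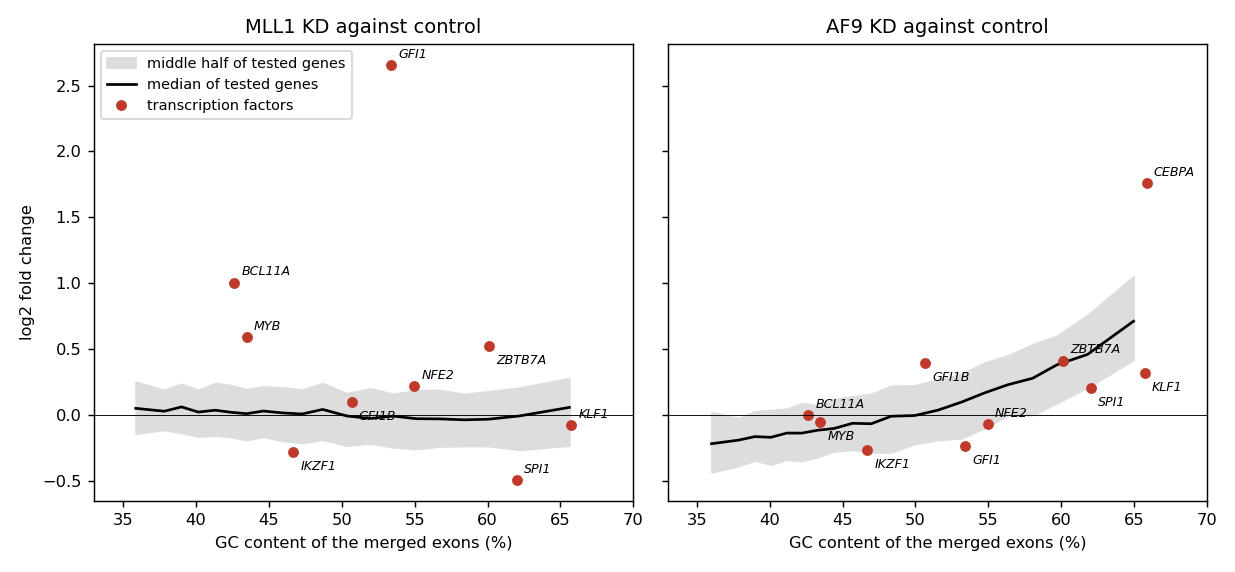
Log2 fold change against the GC content of the merged exons in percent, for MLL1 KD (left) and AF9 KD (right), with the median (line) and the middle 50% (grey) of tested genes in bins of equal size and the 10 transcription factors as red points (9 on the left). On the right the line rises from -0.22 to 0.71, CEBPA lies above it and KLF1 below it at nearly the same GC content, and on the left the line stays near 0 and GFI1 lies at 2.66.

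Among the partners in AF9 KD cells, 3 of the 11 tested GATA1 partners rose, against 13.1% of all tested genes called. ZFPM1 (FOG1), the cofactor of GATA1, was at 1.09 and 1.68 CPM in the controls and at 6.12 and 6.81 CPM in the KD cells (log2 fold change 2.23, SE 0.29, adjusted p = 0.000187, and 1.43 with GC content offsets, adjusted p = 0.00245). It had 58.6 to 102 CPM in the controls of the MLL1 experiment. LYL1 (log2 fold change 0.67) and TCF3 (0.88) were the others, and neither was called with GC content offsets (0.10 and 0.38). GATA1 was at 181 and 215 CPM in the controls and at 240 and 237 CPM in the KD cells, with a log2 fold change of 0.27 (SE 0.10, adjusted p = 0.0616) and of -0.13 with GC content offsets. GATA2 had a log2 fold change of 0.05 (SE 0.13, adjusted p = 0.784), which turned to -0.38 with GC content offsets.

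The NuRD complex, a deacetylase and remodeller that BCL11A and ZBTB7A recruit to the globin genes, had 1 of 13 tested subunits higher and 2 lower. Of all tested genes 13.1% were called, a share that stands beside each list count of AF9 KD cells. MBD3 was at 11.8 and 18.5 CPM in the controls and at 38.5 and 43.2 CPM in the AF9 KD cells (log2 fold change 1.44, SE 0.17, adjusted p = 0.000106). GATAD2B was at 54.8 and 57.7 CPM and at 27.1 and 32.8 CPM (log2 fold change -0.91, SE 0.12, adjusted p = 0.00022). MTA2 fell with a log2 fold change of -0.65 (SE 0.09, adjusted p = 0.000258), and all 3 calls held with GC content offsets. MAFK, the small MAF partner of NFE2, rose (log2 fold change 0.96, SE 0.23, adjusted p = 0.0074) but not with GC content offsets (0.36). EHMT2, a histone H3 lysine 9 methyltransferase, was the 1 of 7 corepressors that rose (0.66, and 0.46 with GC content offsets, no longer called). LIN28B, an RNA-binding protein of fetal cells, fell (-0.61, and -0.44 with GC content offsets, no longer called), so that among 16 fetal globin regulators 1 rose, EHMT2 again, and 1 fell. IKZF4, an Ikaros relative, rose (0.62, SE 0.16, adjusted p = 0.00942, and 0.61 with GC content offsets), the 1 of 11 tested in its list. The list as a whole went the other way, with 2 positive and 9 negative log2 fold changes (median -0.45, against 0.01 for all tested genes). With GC content offsets 1 was positive and 10 negative (median -0.36), and CEBPB, also of this list, fell. None of the 7 MYB coactivators and partners was called without GC content offsets. With them CEBPB and PIM1 of that list fell, and so did MAFF among the NFE2 partners; these genes are named after their values were seen.

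Of the 26 tested erythroid target genes 5 rose and 3 fell in AF9 KD cells, against 13.1% of all tested genes called. The 4 of them with the largest changes and no overlap were HBA2 (log2 fold change 1.22, SE 0.20), HBA1 (1.15, SE 0.17), BLVRB, a biliverdin reductase (0.77, SE 0.10), and E2F4, a cell cycle factor (0.76, SE 0.11), and none of the 4 was called with GC content offsets, where they had 0.52, 0.43, 0.43 and 0.45. The fetal globins, and HBD, KEL and ALAS2, are named after their values were seen. HBG1 was at 3073 and 3161 CPM in the controls and at 2220 and 1880 CPM in the KD cells (log2 fold change -0.60, SE 0.11, adjusted p = 0.00177), and with GC content offsets it had -0.54 and was no longer called. HBG2 was at 4834 and 4869 CPM and at 3544 and 2845 CPM (-0.60, SE 0.12, adjusted p = 0.00295, and -0.59 with GC content offsets, still called). HBD, the delta-globin, also fell (-0.63, SE 0.20, adjusted p = 0.0342, and -0.59 with GC content offsets, still called) and KEL, a red cell antigen, rose (0.60, SE 0.12, adjusted p = 0.00308, and 0.48 with GC content offsets, no longer called). With GC content offsets 1 of the 26 rose and 3 fell, against 7.99% of all tested genes called, and the calls were HBD, HBG2, TFRC and DMTN. ALAS2, which was lower in MLL1 KD cells, was at 165 and 166 CPM in the controls and at 238 and 258 CPM in AF9 KD cells, just under 1.5-fold (log2 fold change 0.58, SE 0.09, adjusted p = 0.000602). The summed level of the 10 erythroid markers, which include HBG1 and HBG2, was 11456 to 11485 CPM in the controls and 7925 to 9785 CPM in the KD cells, and its part in the values of the members was not tested.

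Of the 9 tested myeloid target genes 2 rose in AF9 KD cells, against 13.1% of all tested genes called. ITGAM, an integrin of monocytes and granulocytes, was at 1.16 and 1.01 CPM in the controls and at 2.32 and 3.44 CPM in the KD cells (log2 fold change 1.40, SE 0.36, adjusted p = 0.0114). CYBA, a subunit of the phagocyte oxidase, was at 6.61 and 8.90 CPM and at 15.4 and 17.1 CPM (1.08, SE 0.18, adjusted p = 0.000936), and both calls held with GC content offsets. With the offsets LCN2 of the same list also fell. The summed level of the granulocyte and monocyte markers was 91.6 to 96.3 CPM in the controls and 68.1 to 77.9 CPM in the KD cells, nearly all of it LYZ (group means of 89.5 and 68.2 CPM), so the sum reads that gene rather than the list, and ELANE and PRTN3 were at 0. None of the 9 tested megakaryocyte markers and none of the 4 lymphoid markers was called without GC content offsets. With them GP9 fell, all 9 megakaryocyte markers had a negative log2 fold change and again no lymphoid marker was called. LCN2 and GP9, like TFRC and DMTN, are named after their values were seen.

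The third comparison tested the difference of the effects, AF9 KD minus MLL1 KD, over all 10 libraries. GFI1 was the 1 of 10 members that passed, with a difference in log2 fold change of -2.90 (SE 0.52, adjusted p = 0.0404), against 1.34% of the 12732 tested genes. GFI1 was 6.31-fold higher in MLL1 KD cells and within the range of the controls in AF9 KD cells, and the controls of the experiments themselves differed in their level of GFI1. In the MLL1 experiment GFI1 passed the level filter only through the KD cells. With GC content offsets the adjusted p was 0.0542, and leaving out any single library other than replicate 1 of MLL1 KD raised it to between 0.0542 and 0.262. With the replicate block 5 members passed, against 15.2% of tested genes, with the AF9 libraries also paired by number. These were GFI1 (-2.89, adjusted p = 0.000173), MYB (-0.65, adjusted p = 0.000348) and BCL11A (-1.07, adjusted p = 0.0127), whose effect was lower in AF9 KD, and SPI1 (0.69, adjusted p = 0.00159) and CEBPA (2.59, adjusted p = 0.0367), whose effect was higher. Block and GC content offsets together left GFI1 (-3.02) and BCL11A (-0.92), against 1169 of the 12732 tested genes. The value of CEBPA rests on 2 to 7 counts per library in the MLL1 experiment. The difference was 0.39 (SE 0.19, adjusted p = 0.354) for KLF1, 0.28 (SE 0.31, adjusted p = 0.708) for GFI1B, -0.30 (SE 0.14, adjusted p = 0.298) for NFE2, -0.13 (SE 0.18, adjusted p = 0.78) for ZBTB7A and -0.00 (SE 0.18) for IKZF1, which do not show that these effects were alike.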

How the data were processed

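RNA-seq of HEL cells was analysed for 10 libraries. Per the paper's methods and the submitters' processing notes, the authors filtered reads with fastp 0.13.1, mapped them to hg38 with HISAT2 2.1.0 and counted them per gene by strand with featureCounts 1.6.1, and the annotation behind the symbols is not given in the sources used here. The deposited values are raw counts per gene, with no normalization. Library totals are 6966345 to 14232408 counts, and a gene with few counts is measured with correspondingly low precision.

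Counts were tested with edgeR 4.0.16 in R 4.3.3 (TMM factors, glmQLFit and glmQLFTest), KD against control within each experiment, after a filter that kept mean TPM values of 1 or more. A call required a 1.5-fold change and an adjusted p under 0.05. The study's methods name DESeq2 (version 1.42.0 here), which was run as an alternative. Lengths and GC content came from the merged exons of GENCODE version 44, matched for 92.3% of symbols (716 through a RefSeq synonym), with CPM in place of TPM for unmatched symbols. GC content offsets were lowess curves with a span of 0.3. The scripts also used Python, and promoter windows came from the RefSeq table. In simulated counts with 200 genes changed 2-fold, 26.0% of them were called in the MLL1 design and 89.5% in the AF9 design. Of the calls in the MLL1 design 8.77% were false. The simulation gave all genes the same relative spread and the libraries no shared replicate effect, and it used the fit without the block. These shares therefore do not carry over to the fits with the block.

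The libraries of the MLL1 experiment were treated as paired by replicate number, because the deviations from the group means correlated over 0.1 in all 3 same-number pairs (0.648, 0.326 and 0.352). Replicates 2 and 3 also correlated across numbers (0.369 and 0.360), so the data set replicate 1 apart and do not tell 2 from 3. With only 2 pairs, the AF9 libraries (0.156) were not treated as paired. Exact permutation tests over libraries cannot go below 0.100 with 3 against 3 and 0.333 with 2 against 2, and were not used for calls.

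The genes named are the 10 members, both targeted genes, GATA1 and GATA2, and every list gene called without the block, or, where a list had over 6 calls, the 4 with the largest changes and no overlap between groups. Genes named outside this rule are marked. The members and lists were chosen with earlier results of these data known.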

Additional observations from a re-analysis of the deposited data

Results flagged for a closer look

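GFI1 passed the test of the difference of the effects, with a log2 fold change in AF9 KD minus that in MLL1 KD of -2.90 (SE 0.52, adjusted p = 0.0404, edgeR). It did not pass with GC content offsets alone. Its level also differed between the controls, at 0.774 to 1.81 CPM in the MLL1 experiment and at 4.54 and 7.56 CPM in the AF9 experiment. All KD libraries of the MLL1 experiment were above all its controls, so that any pairing of them gives 3 of 3 higher pairs. With 1 library of the MLL1 experiment left out, the adjusted p (edgeR) was 0.00926 without KD replicate 1. It was between 0.0542 and 0.103, not passing, without any other. With 1 library of the AF9 experiment left out, the difference was between -3.23 and -2.49.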

How the results depend on the processing

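Of the recomputed member values, 442 kept their direction and their side of the threshold, 23 passed it newly, 12 no longer passed it and 37 changed sign, and the cause was not tested. In MLL1 KD, 10 genes were called, against 232 and 218 with DESeq2 (same genes, and all genes then filtered), 6 with total counts, 32 with no filter, 684 with the replicate block, 675 with block and GC content offsets, 696 with replicates 2 and 3 alone, and 0 to 53 when 1 library was left out (53 without KD replicate 1). Members called there were 0, against 2 and 2 with DESeq2, 1 with no filter, 3 with the block, 2 with block and GC content offsets, 3 with replicates 2 and 3 alone, and 0 to 2 with 1 library left out. In AF9 KD, 1744 genes were called, against 3862 with no fold threshold, 510 at 2-fold, 1065 with GC content offsets and 1052 to 1998 with 1 library left out. Members called there were 1, against 4 with no fold threshold, 0 at a mean TPM of 5 (CEBPA was then untested), 0 with GC content offsets, and 0 to 1 with 1 library left out. The replicate block in AF9 KD gave 1957 calls and still called CEBPA, from 2 pairs whose deviations correlated at 0.156. For the difference of effects, 170 of 12732 tested genes were called, against 755 and 675 with DESeq2. The count was 204 at a mean TPM of 5, 52 with GC content offsets, 1929 with the block and 1169 with block and GC content offsets. With 1 library of the MLL1 experiment left out it was 12 to 933. Members called there were 1, against 2 and 2 with DESeq2, 0 at a mean TPM of 5, 0 with GC content offsets, 5 with the block, 2 with block and GC content offsets, and 0 to 2 with 1 library of the MLL1 experiment left out.

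Signs that changed, as log2 fold changes, were these. In MLL1 KD, leaving out 1 library gave -0.16 to 0.032 for KLF1 and -0.035 to 0.41 for GFI1B (-0.027 without control replicate 2). In AF9 KD, GC content offsets gave -0.36 for KLF1, 0.061 for MYB, 0.13 for BCL11A and -0.27 for SPI1, and nearly the same with the replicate block added. Total counts, which moved the median of all genes from 0.01 to 0.10, gave 0.018 for NFE2, 0.034 for MYB and 0.087 for BCL11A. BCL11A was 0.0053 with DESeq2 on the same genes and 0.0012 with DESeq2 size factors or canonical transcript length, the last an alternative chosen after seeing the data. Leaving out 1 library gave -0.15 to 0.0080 for NFE2, -0.11 to 0.0039 for MYB, -0.55 to 0.19 for GFI1, -0.35 to 0.29 for BCL11A (0.18 without control replicate 1) and -0.022 to 0.47 for SPI1 (-0.0073 without KD replicate 2). For the difference, KLF1 was -0.26 with GC content offsets, with or without the block. IKZF1 was 0.10 with total counts, 0.020 at a mean TPM of 5, 0.050 with GC content offsets, 0.051 with these and the block, 0.0043 with the block and 0.0032 with canonical length. Leaving out 1 library gave -0.097 to 0.11 for IKZF1 (0.039, 0.0084 and 0.066 among them) and -0.021 to 0.41 for GFI1B. An arm left with 1 library was assumed to vary like the other groups. Depth limits GFI1 in the MLL1 controls (6 to 13 counts) and CEBPA in all libraries (2 to 39 counts).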
